A study of Mus musculus with 8 samples.

Results

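The genes described here encode the 5 Atg8 proteins of the mouse brain that were counted (Map1lc3a, Map1lc3b, Gabarap, Gabarapl1 and Gabarapl2), the autophagy receptors Sqstm1 and Optn, and the initiation factors Ulk1 and Becn1. They were chosen by gene symbol, through the Ensembl identifier of each row, and make up 9 of the 22430 genes in the count table. Autophagy is the route by which cytoplasm, protein aggregates and worn organelles are enclosed in a double membrane and delivered to the lysosome. The ULK1 kinase and the Beclin 1 lipid kinase complex start the membrane, Atg8 proteins are attached to its lipid, and receptors such as p62 bind ubiquitin-tagged cargo with one end and Atg8 proteins with another. In neurons, which cannot dilute damaged material by dividing, autophagosomes form far out in axons and travel along microtubules to the cell body.

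The 8 libraries came from male C57Bl/6JRj mice, an inbred strain with no transgene or treatment, at 6 months (young adult, 6m, n = 4) and 24 months (aged, 24m, n = 4). Each mouse gave 1 library, made from RNA of a homogenized whole brain hemisphere and read on an ONT MinION, so that neurons, glia, vessels and blood were measured together. Counts on genes totalled 843706, 573152, 838483 and 818963 in 6m replicates 1 to 4, and 660398, 903595, 742951 and 1255424 in 24m replicates 1 to 4. In the following, CPM are counts scaled to library size with TMM factors, and log2FC is 24m over 6m. A gene was called changed where p, adjusted by Benjamini-Hochberg over the 9375 tested genes, did not exceed 0.05 and the absolute log2FC reached 0.58, a fold of 1.49.

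One aged library stood apart. The score of 24m replicate 1 on the second principal component, which held 17.2% of the variance, was 38.4, against -17.5 to 7.48 in the other libraries. Of the 9 genes, 6 had their highest aged CPM in this library and 1, Becn1, had its lowest there, so the age difference of each of the 9 is also given without it. In whole-hemisphere RNA, a fall in the number of cells of a type and a fall in RNA per cell cannot be told apart.

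All 9 genes were abundant enough to be tested. By both thresholds, 1 of the 9 was higher at 24m (Ulk1), where 10.3% of all tested genes were, and 0 were lower, where 4.17% of all tested genes were. By adjusted p alone, 3 of the 9 were higher (Map1lc3b, Gabarapl1 and Ulk1; 12.3% of all tested genes) and 0 were lower (9.42%). At an unadjusted p under 0.05 in edgeR, 3 were higher (18.3% of all tested genes) and 0 lower (16% of all tested genes). By both thresholds, DESeq2 on raw counts and limma-voom called 0 of the 9 in either direction. DESeq2 on quantile-normalized counts called 1 higher, Map1lc3b in place of Ulk1, and 0 lower. Of the 9375 tested genes, DESeq2 called 629 higher and 205 lower on raw counts and 547 and 272 on quantile-normalized counts. Limma-voom called 701 higher and 484 lower. Every aged library lay above every young adult library for 2 of the 9 (Map1lc3b and Gabarapl1; 11.1% of all tested genes) and below for 1 (Becn1; 9.96%). The median log2FC of the 9 genes was 0.08, beside -0.003 for all tested genes, and leaving out single libraries gave 0.0003 (without 24m replicate 1) to 0.15 (without 24m replicate 4). It was 0.185 with library sizes alone, where that of all tested genes was 0.10, and 0.20 and 0.19 with quantile normalization in DESeq2 and limma-voom, where that of all tested genes was -0.05 in each. No test was made of these shares against all tested genes, and the values that follow describe single genes.

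**Figure D1:**
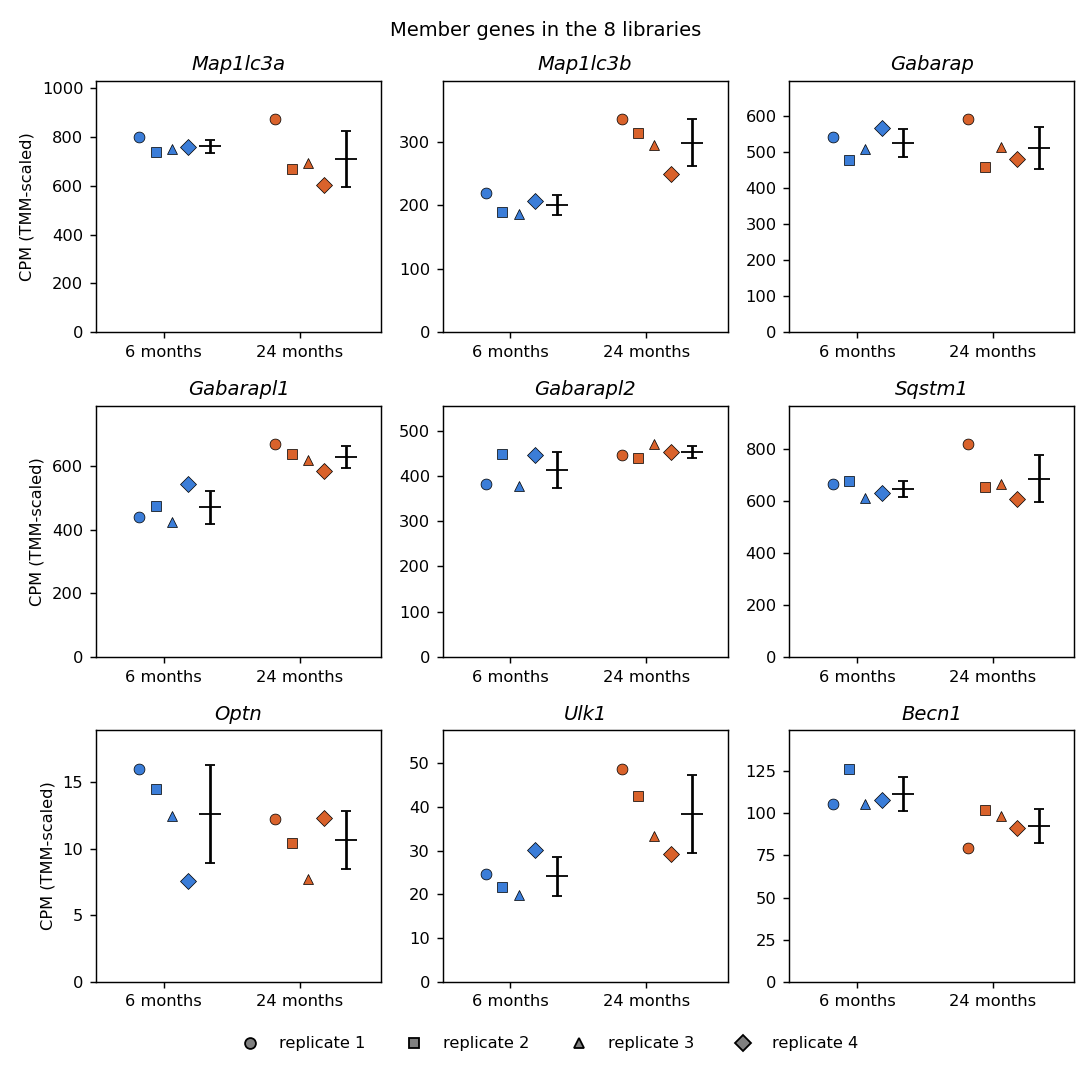
CPM (TMM-scaled, vertical axis from 0) of the 9 genes in each of the 4 young adult (blue) and 4 aged (orange) libraries, with marker shapes for replicate numbers and a black bar for the mean ± SD of each age. Map1lc3b and Gabarapl1 lay higher in every aged library than in any young adult one, Becn1 lower, and the other 6 genes overlapped between the ages.

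Between genes, levels were set side by side as CPM per kilobase of transcript, although in direct RNA reading 1 read stands for about 1 molecule. At 6m, Map1lc3a led with 685 CPM per kilobase, followed by Gabarap (298), Gabarapl1 (259), Gabarapl2 (245), Sqstm1 (198), Map1lc3b (79.1), Becn1 (25.5), Optn (4.67) and Ulk1 (3.96). The libraries of Gabarap and Gabarapl1, of Gabarapl1 and Gabarapl2, and of Optn and Ulk1 overlapped, whereas the other neighbours in that order did not. At 24m, Gabarapl1 (346 CPM per kilobase) stood before Gabarap (290) and Ulk1 (6.32) before Optn (3.93). The libraries of Gabarapl1 and Gabarap still overlapped at 24m, as did those of Gabarap and Gabarapl2 (268), and those of Ulk1 and Optn did not. Without division by length the order was another. Sqstm1 then came 2nd at both ages (647 and 687 CPM on average, after Map1lc3a with 762 and 709), and Ulk1 stood above Optn at 6m already (24.1 against 12.6 CPM). Only Gabarapl1 and Gabarap thus changed places between the ages on both scales. Thus the brain held abundant Atg8 and p62 transcripts and few transcripts of the initiating kinase at either age.

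Atg8 proteins are made as precursors that the ATG4 proteases cut behind a glycine, which is then joined to phosphatidylethanolamine in the growing membrane. Across the whole coding region, Map1lc3a and Map1lc3b were identical at 77.5% of aligned bases and Gabarap and Gabarapl1 at 74.9%, and the lowest identity was 57.4%, between Map1lc3a and Gabarapl1.

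Map1lc3b (ENSMUSG00000031812, GRCm39 chromosome 8, 122317100 to 122325499, plus strand) encodes LC3B, the Atg8 protein most used as a marker of autophagosomes. Its CPM were 219, 190, 187 and 206 in 6m replicates 1 to 4, and 335, 314, 296 and 249 in 24m replicates 1 to 4. The lowest aged library thus lay above the highest young adult one. Mean CPM were 200.4 ± 15.0 (SD) over the 4 libraries at 6m and 298.6 ± 36.6 over the 4 at 24m. The log2FC was 0.56 (95% interval 0.34 to 0.79, adjusted p = 0.00075 from the edgeR fit). The estimate fell just short of the minimum fold, so Map1lc3b was higher by adjusted p alone. Without 24m replicate 1, the log2FC was 0.51 (adjusted p = 0.00056 from edgeR; range over the alternatives 3.44e-05 to 0.0058). Leaving out 6m replicate 1 (log2FC 0.62), 6m replicate 4 (0.59) or 24m replicate 4 (0.66) brought it past the fold minimum. It was likewise called with DESeq2 on quantile-normalized counts (0.5835), with library sizes alone (0.67), with filterByExpr (0.58) and with more than 5 counts asked of every library (0.61), in all 7 of 18 alternatives. Processed pseudogenes of Map1lc3b numbered 5 in the annotation, with 93.9% to 99.7% identity over 14.2% to 14.9% of its transcript, and none was in the count table, so reads placed on them would be missing from its counts.

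Map1lc3a (ENSMUSG00000027602, chromosome 2, 155118217 to 155119998, plus strand) encodes LC3A, first purified with LC3B from brain as a light chain of microtubule-associated proteins. Its CPM were 799, 740, 752 and 757 in the young adult libraries and 872, 669, 692 and 604 in the aged ones. Replicate 1 was the highest of all 8 libraries, and the other 3 aged libraries were below every young adult one. Over all libraries the ages overlapped, with means of 762 ± 25.7 and 709 ± 115 CPM (SD over 4 libraries each), and the log2FC was -0.11 (SE 0.0984, adjusted p = 0.458 in edgeR). Without 24m replicate 1 the log2FC was -0.21 with an adjusted p of 0.0275 (edgeR; range over the alternatives 0.0275 to 0.956), still short of the fold minimum. Leaving out 24m replicate 4 instead brought the log2FC to -0.02 (adjusted p = 0.903 in edgeR). The sign of this gene depended on scaling, since it was 0.05 and 0.03 with quantile normalization in DESeq2 and limma-voom.

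Gabarapl1 (ENSMUSG00000030161, chromosome 6, 129509725 to 129520544, plus strand), also known as GEC1, is the GABARAP relative with high levels in the central nervous system. It had 442, 476, 426 and 544 CPM in the young adult libraries and 671, 639, 622 and 587 CPM in the aged libraries. The ages did not overlap, and 6m replicate 4 came closest to the aged values. Means of 472 ± 52.3 and 629.7 ± 35.0 CPM (SD, n = 4 each) gave a log2FC of 0.41 (95% interval 0.22 to 0.61, adjusted p = 0.00258 from edgeR). This is a fold of 1.33, under the minimum of 1.49, and none of the 18 alternatives brought it past that minimum. The adjusted p stayed at or under 0.05 in all 18 (0.000767 without 24m replicate 1, where the log2FC was 0.39; range 3.29e-05 to 0.0177, edgeR, DESeq2 or limma-voom). A noncoding gene on the opposite strand, 1700101I11Rik, shares exon bases with Gabarapl1 and was not in the count table.

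Gabarap (ENSMUSG00000018567, chromosome 11, 69881888 to 69886109, plus strand), which was named for its binding to the GABA type A receptor, had 543, 479, 510 and 568 CPM at 6m and 591, 460, 513 and 481 CPM at 24m. The young adult and aged libraries were interspersed. Its log2FC was -0.05 (95% interval -0.24 to 0.15, adjusted p = 0.774 in edgeR), -0.11 without 24m replicate 1, and above 0 with library sizes alone (0.06) and with quantile normalization (0.03 in DESeq2, 0.01 in limma-voom). Leaving out 6m replicate 4 (0.0018) or 24m replicate 2 (0.0054) also put it just above 0. An age difference of the size seen for Gabarapl1 lies outside the interval of Gabarap. Gabarapl2 (ENSMUSG00000031950, chromosome 8, 112667322 to 112682011, plus strand), also called GATE-16, had 382, 448, 378 and 446 CPM at 6m and 447, 441, 471 and 454 CPM at 24m. Its aged libraries were close together and overlapped the upper pair of young adult libraries. The log2FC of Gabarapl2 was 0.13 (95% interval -0.05 to 0.32, adjusted p = 0.318 in edgeR; 0.15 without 24m replicate 1). For Gabarapl2, 6 processed pseudogenes matched 18.4% to 20.8% of the transcript at 90.8% to 99.4% identity, and none of them was counted in the table.

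**Figure D2:**
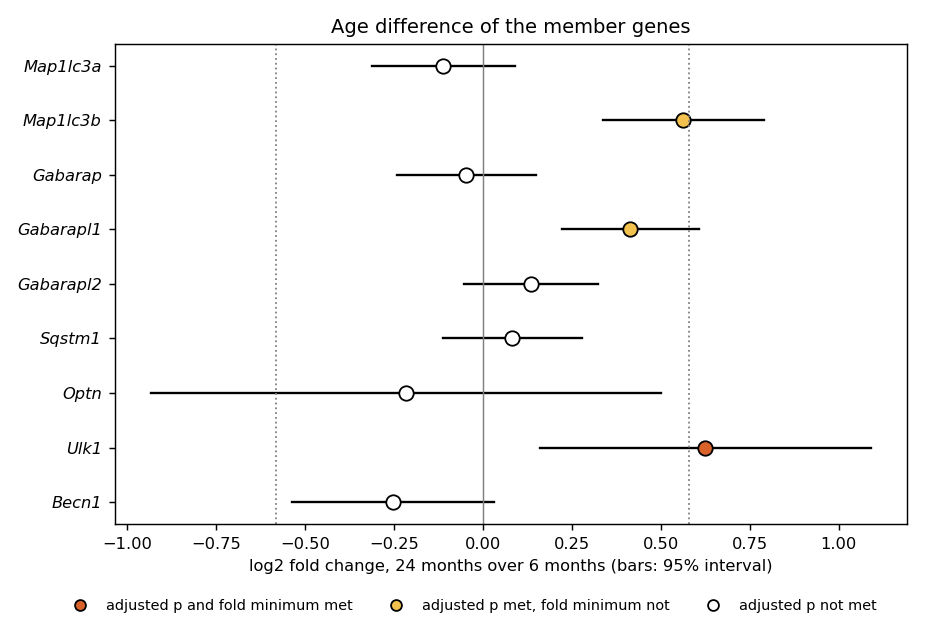
Log2FC (24 months over 6 months, horizontal axis) of the 9 genes with 95% intervals from the edgeR fit and dotted lines at the fold minimum of 0.58 in either direction. Ulk1 (0.63) met both thresholds, Map1lc3b (0.56) and Gabarapl1 (0.41) met the adjusted p alone, and the sign of Map1lc3a and Gabarap changed with quantile normalization and, for Gabarap, with library sizes alone and with 6m replicate 4 or 24m replicate 2 left out.

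The make-up of the Atg8 family within each library needs no scaling between libraries. Map1lc3a supplied 33.5%, 31.7%, 33.4% and 30.04% of the Atg8 counts in the young adult libraries and 29.9%, 26.5%, 26.7% and 25.4% in the aged ones. Map1lc3b supplied 8.14% to 9.19% at 6m and 10.5% to 12.4% at 24m. The share of Gabarap was 20.5% to 22.8% at 6m and 18.2% to 20.3% at 24m. Gabarapl1 made up 18.5% to 21.6% at 6m and 23.0% to 25.4% at 24m. For these 4 genes the shares of the ages did not overlap, by a narrow margin for Map1lc3a and Gabarap, while Gabarapl2 kept close means of 17.4% and 17.5%. Shares within a family are tied, since a larger part for some members leaves a smaller part for others.

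Count ratios between relatives restate these shares, as they are taken from the same counts of each library. There were 0.263 ± 0.0124 Map1lc3b counts for each Map1lc3a count at 6m and 0.423 ± 0.0355 at 24m (SD, n = 4 each). For each Gabarap count there were 0.900 ± 0.0887 Gabarapl1 counts at 6m and 1.24 ± 0.109 at 24m, so that Gabarapl1 was counted less often than Gabarap in every young adult library and more often in every aged library. The ratio of Gabarapl1 to Gabarapl2 was 1.14 ± 0.0664 at 6m and 1.39 ± 0.101 at 24m. These ratios are descriptions and were not tested. The 5 genes together reached 2384, 2333, 2253 and 2520 CPM at 6m and 2916, 2522, 2594 and 2376 CPM at 24m. This total overlapped between the ages, with means of 2372 ± 112 and 2602 ± 228 CPM (SD, n = 4 each).

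**Figure D3:**
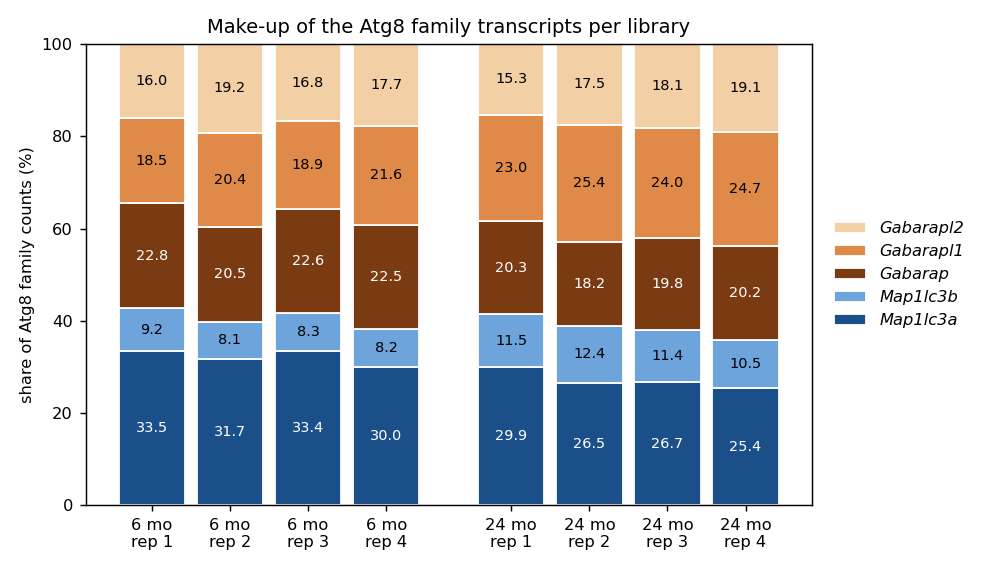
Share of each of the 5 Atg8 genes (percent of the Atg8 counts of a library, vertical axis) in the 4 libraries of each age. The segments of Map1lc3b and Gabarapl1 were larger in every aged library than in any young adult library, and those of Map1lc3a and Gabarap were smaller.

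Sqstm1 (ENSMUSG00000015837, chromosome 11, 50089572 to 50107684, minus strand) encodes p62, the receptor that gathers ubiquitinated proteins, binds LC3 and is itself broken down by autophagy. It had 665, 678, 614 and 630 CPM at 6m and 820, 653, 665 and 610 CPM at 24m. Apart from 24m replicate 1, the highest of the 8 libraries, aged and young adult values filled the same range. The log2FC of 0.08 (95% interval -0.11 to 0.28, adjusted p = 0.577 in edgeR) was 0.0003 without that library. It was 0.20 and 0.19 with quantile normalization in DESeq2 and limma-voom, 0.185 with library sizes alone and 0.155 without 24m replicate 4. The adjusted p of Sqstm1 was above 0.05 in all 18 alternatives. For each Map1lc3b count there were 3.24 ± 0.249 Sqstm1 counts at 6m and 2.31 ± 0.176 at 24m (SD, n = 4 each), without overlap. Exons of Mrnip and Mgat4b, with 168 and 437 counts over all libraries, overlap Sqstm1 on the opposite strand.

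Optn (ENSMUSG00000026672, chromosome 2, 5022703 to 5068945, minus strand) encodes optineurin, a receptor in the removal of mitochondria and bacteria. Its counts were 13, 8, 10 and 6 in the young adult libraries and 8, 10, 6 and 16 in the aged ones, the fewest of the 9 genes. As CPM these were 16.0, 14.5, 12.5 and 7.53 at 6m and 12.2, 10.4, 7.68 and 12.3 at 24m. The ages overlapped throughout, and the log2FC of -0.22 (adjusted p = 0.705 in edgeR; -0.25 without 24m replicate 1) had a 95% interval from -0.93 to 0.50. Over left-out libraries the log2FC ranged from -0.40 (without 6m replicate 4) to -0.05 (without 6m replicate 1). With so few counts the interval of Optn was wide. It passed the fold minimum of 0.58 in the lower direction and not in the higher, while that of Sqstm1 ran from -0.11 to 0.28.

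Ulk1 (ENSMUSG00000029512, chromosome 5, 110931496 to 110957995, minus strand) encodes the kinase that receives starvation and energy signals and phosphorylates the other initiation factors. It was read 20, 12, 16 and 24 times in the young adult libraries and 32, 41, 26 and 38 times in the aged libraries. The CPM were 24.6, 21.7, 19.9 and 30.1 at 6m and 48.8, 42.6, 33.3 and 29.1 at 24m. One pair overlapped, as 24m replicate 4 lay under 6m replicate 4. Mean CPM rose from 24.1 ± 4.47 to 38.5 ± 8.90 (SD, n = 4 each), a log2FC of 0.63 (95% interval 0.16 to 1.09, adjusted p = 0.0483 from edgeR). The call sat at the edge of the threshold and was lost in 10 of 18 alternatives, with adjusted p from 0.0178 to 0.174 over all of them and a log2FC from 0.51 to 0.78. It was lost with DESeq2 on raw counts (adjusted p = 0.128) and with limma-voom (0.122), and on leaving out 6m replicate 1 (0.0913 in edgeR), 6m replicate 2 (0.0915), 6m replicate 3 (0.136), 24m replicate 1 (0.0998, log2FC 0.52), 24m replicate 2 (0.137) or 24m replicate 3 (0.0603).

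Becn1 (ENSMUSG00000035086, chromosome 11, 101176769 to 101193122, minus strand) encodes Beclin 1, the scaffold of the lipid kinase complex that marks the site of the new membrane. It had 106, 127, 106 and 108 CPM at 6m and 79.3, 102, 98.5 and 91.3 CPM at 24m. Every aged library was below every young adult library, by a small gap between 24m replicate 2 and the 6m replicates 1 and 3. The means were 111.6 ± 10.07 and 92.7 ± 10.02 CPM (SD, n = 4 each), and the log2FC of -0.25 (95% interval -0.54 to 0.03) did not pass the test (adjusted p = 0.202 in edgeR). Without 24m replicate 1 the log2FC was -0.18, and it was below 0 in all 18 alternatives. Cntd1, on the opposite strand, shares 3227 exon bases with Becn1 but held 6 counts in all.

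**Figure D4:**
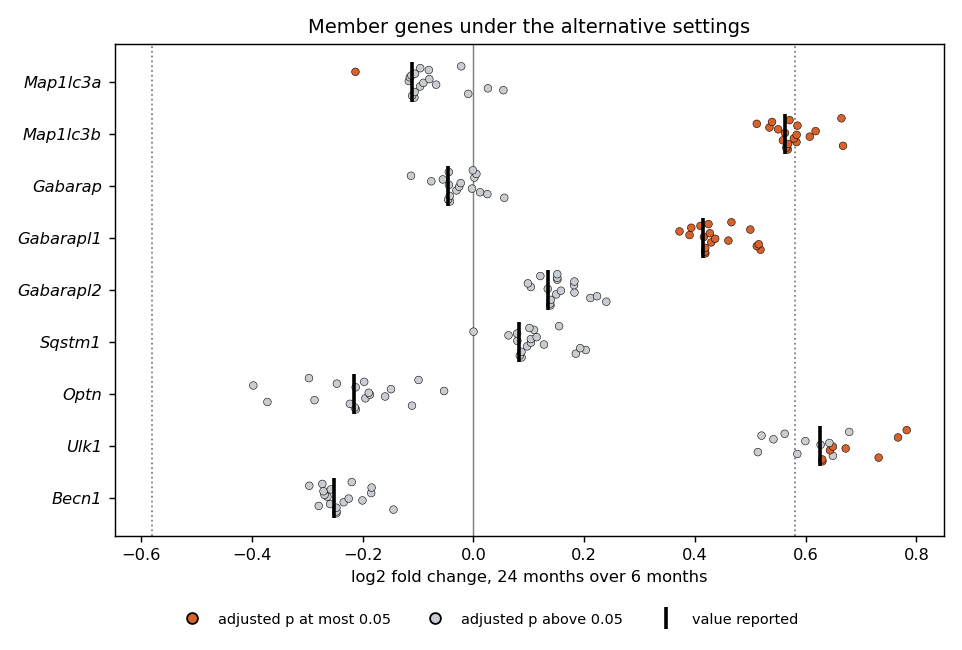
Log2FC (24 months over 6 months, horizontal axis) of the 9 genes under 18 alternatives of scaling, test, filter, replicate block and left-out library (points, orange where the adjusted p was at most 0.05), with the reported value as a black tick and dotted lines at 0.58 in either direction. The points of Map1lc3b and Gabarapl1 were orange in all 18 alternatives and those of Ulk1 in 8, while those of Map1lc3a and Gabarap fell on both sides of 0.

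Since Map1lc3b, Gabarapl1 and Ulk1 were higher by adjusted p, the 250 bases before their RefSeq start sites are shown. They lie at chr8:121590188-121590437 (plus strand), chr6:129532942-129533191 (plus strand) and chr5:110810082-110810331 (minus strand) of GRCm38.p6, and capitals mark GC boxes (GGGCGG on either strand).
Map1lc3b: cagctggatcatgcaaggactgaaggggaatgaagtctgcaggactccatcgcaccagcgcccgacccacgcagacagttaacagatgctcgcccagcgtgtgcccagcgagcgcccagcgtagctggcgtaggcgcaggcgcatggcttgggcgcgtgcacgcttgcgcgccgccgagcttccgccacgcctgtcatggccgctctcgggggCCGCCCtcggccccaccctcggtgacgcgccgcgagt
Gabarapl1: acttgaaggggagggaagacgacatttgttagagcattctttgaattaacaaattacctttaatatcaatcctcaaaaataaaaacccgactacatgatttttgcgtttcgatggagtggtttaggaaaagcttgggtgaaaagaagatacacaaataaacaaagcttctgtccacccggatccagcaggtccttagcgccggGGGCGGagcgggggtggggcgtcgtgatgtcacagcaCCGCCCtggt
Ulk1: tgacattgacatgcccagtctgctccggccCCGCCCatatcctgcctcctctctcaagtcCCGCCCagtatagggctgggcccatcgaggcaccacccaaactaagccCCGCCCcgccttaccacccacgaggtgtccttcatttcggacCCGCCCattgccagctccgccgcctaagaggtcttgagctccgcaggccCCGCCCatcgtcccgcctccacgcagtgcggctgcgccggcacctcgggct
Of the 9 genes, 7 had a RefSeq promoter entry; Map1lc3a and Becn1 did not. The Ulk1 window held 5 GC boxes, that of Gabarapl1 2 and that of Map1lc3b 1, and 6 of the 7 windows held at least 1, as did 32.7% of 32851 mouse promoter windows of the same length. The E-box CACGTG and its extended form TCACGTGA, which contains it, are bound by TFEB-type factors, GTAAACA by FOXO factors and TGACNNNGC by NRF2. None of the 7 windows held any of these letters on either strand, and over all promoter windows the shares were 6.02%, 0.785%, 3.17% and 10.2%. This says only that those letters are not in the windows searched.

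The other genes of the pathway were read from the same fit. In 7 lists of other receptors and of autophagy machinery, 71 of 81 genes passed the count filter. Both thresholds were met by 8 of them in the higher direction and 3 in the lower in edgeR (10.3% and 4.17% of all tested genes). DESeq2 on either kind of counts and limma-voom called 5 higher and 3 lower. Of all 9375 tested genes, DESeq2 called 629 higher and 205 lower on raw counts and 547 and 272 on quantile-normalized counts. Limma-voom called 701 higher and 484 lower. The median log2FC of the 71 genes was 0.23, beside -0.003 for all tested genes. It was 0.14 without 6m replicate 1, 0.15 without 24m replicate 2 and 0.32 without 6m replicate 4. Without 24m replicate 4 it was 0.31, and with library sizes alone 0.34. Of the 19 other receptors tested, 5 were higher and 2 lower in edgeR, and 3 and 2 with the other tools; whether these counts differ from those of all tested genes was not tested. Rtn3, a receptor for tubular endoplasmic reticulum, rose from 158.5 ± 16.7 to 342 ± 91.0 CPM (log2FC 1.13, adjusted p = 6.03e-06 in edgeR; 1.301 without 24m replicate 1, its lowest aged library with 210.3 CPM). Higher as well were Tollip (1.24), which binds ubiquitinated aggregates, Bcl2l13 (2.03, from 1 to 4 counts per young adult library to 8 to 13 per aged one) and Bnip3l (0.62), both mitochondrial receptors, and Retreg3 (0.96), which acts on the endoplasmic reticulum. Bcl2l13 passed the count filter through its aged libraries, and it was not tested under filterByExpr or with more than 5 counts asked of every library. Tax1bp1, which like p62 binds ubiquitin and Atg8 proteins, fell from 77.9 ± 5.12 to 45.6 ± 0.635 CPM (log2FC -0.77, adjusted p = 0.000696 in edgeR; -0.77 also without 24m replicate 1), and Ccpg1 fell likewise (-0.70).

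Around Ulk1, Atg13 and Ulk2 were changed and higher among the 4 other subunits of ULK complexes in edgeR (10.3% of all tested genes), and 1 of the 4 in DESeq2 and in limma-voom. Atg13, which holds the kinase in its complex, rose from 31.5 ± 2.28 to 57.7 ± 10.6 CPM (log2FC 0.84, adjusted p = 0.00213 in edgeR; 0.83 without 24m replicate 1), with no overlap. Ulk2, the close relative of Ulk1, rose from 4 to 8 counts per young adult library to 10 to 24 per aged library (log2FC 1.00, adjusted p = 0.0303 in edgeR). Atg101, another subunit, pointed the other way and did not pass the test (log2FC -0.30, adjusted p = 0.138 in edgeR, unadjusted 0.0457), although its aged libraries (69.8 to 82.3 CPM) lay below the young adult ones (83.4 to 103 CPM). Rb1cc1, the remaining subunit, also pointed down without passing the test (log2FC -0.39, adjusted p = 0.426 in edgeR), and its ages overlapped. Around Becn1, 0 of 6 subunits and regulators of its lipid kinase complexes were called by edgeR, DESeq2 or limma-voom, and 1 had an unadjusted p under 0.05, the inhibitor Rubcn (log2FC 0.81, adjusted p = 0.143 in edgeR). At an unadjusted p under 0.05, 18.3% of all tested genes were higher and 16% lower. For the Atg8 proteins themselves, 0 of 9 conjugation enzymes were called by any of the 3 tools with its own scaling. The smallest p of these enzymes, and the single unadjusted p under 0.05, belonged to the protease Atg4b, which exposes that glycine (log2FC 0.52, adjusted p = 0.0922 in edgeR; range over the alternatives 0.0344 to 0.234). Atg4b was called higher in 2 of 18 alternatives, with library sizes alone (log2FC 0.62, adjusted p = 0.0442 in edgeR) and without 24m replicate 2 (log2FC 0.68, adjusted p = 0.0344). Among genes of lipid supply to the membrane, 0 of 11 were called by any of the 3 tools, and Wdr45b alone had an unadjusted p under 0.05 (log2FC 0.43, adjusted p = 0.079 in edgeR).

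At the late end of the pathway, where autophagosomes meet lysosomes, the late endosomal GTPase Rab7 was higher (log2FC 0.63, adjusted p = 0.00124 in edgeR) and the tethering subunit Vps41 lower (-0.77, adjusted p = 0.000395 in edgeR) of 11 genes. Of all tested genes, 10.3% were higher and 4.17% lower by both thresholds. Of 11 upstream regulators, 0 met both thresholds in edgeR, DESeq2 or limma-voom, and at an unadjusted p under 0.05 4 were higher and 1 lower (18.3% and 16% of all tested genes). Keap1, the NRF2 adaptor that p62 binds, was the one with the smallest p (log2FC 0.47, adjusted p = 0.0339 in edgeR). Its adjusted p was at most 0.05 in 10 of 18 alternatives (range 0.0109 to 0.141). It was above 0.05 in DESeq2 (0.125 and 0.141) and in edgeR with no count filter (0.0529) or with the replicate block (0.0524). The same held in edgeR without 6m replicate 1 (0.0884), 6m replicate 3 (0.0863), 24m replicate 2 (0.0709) or 24m replicate 3 (0.0627). The calls of Ulk2, Retreg3 and Bnip3l depended on the tool. DESeq2 did not call Ulk2 on raw or quantile-normalized counts (adjusted p = 0.114 and 0.174), Retreg3 (0.0676 and 0.0832) or Bnip3l (0.0932 and 0.118), and limma-voom did not call Ulk2 (0.0592), Retreg3 (0.0847) or, by fold, Bnip3l (log2FC 0.576). Leaving out single libraries ended the calls of Ulk2 (adjusted p in edgeR 0.0661 without 6m replicate 1, 0.0621 without 6m replicate 2, 0.074 without 6m replicate 4, 0.0739 without 24m replicate 3 and 0.0652 without 24m replicate 4) and of Retreg3 (0.121 without 6m replicate 1, 0.0724 without 6m replicate 2, 0.132 without 24m replicate 2 and 0.0551 without 24m replicate 3). Bnip3l was lost without 6m replicate 2 (adjusted p in edgeR 0.0502), 3 (0.057) or 4 (0.0895), without 24m replicate 2 (0.0636) and, by fold, without 24m replicate 1 (log2FC 0.57), as were Rab7 without 6m replicate 4 (0.55) or 24m replicate 4 (0.56) and Ccpg1 without 24m replicate 3 (-0.58, just short of the minimum).

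**Figure D5:**
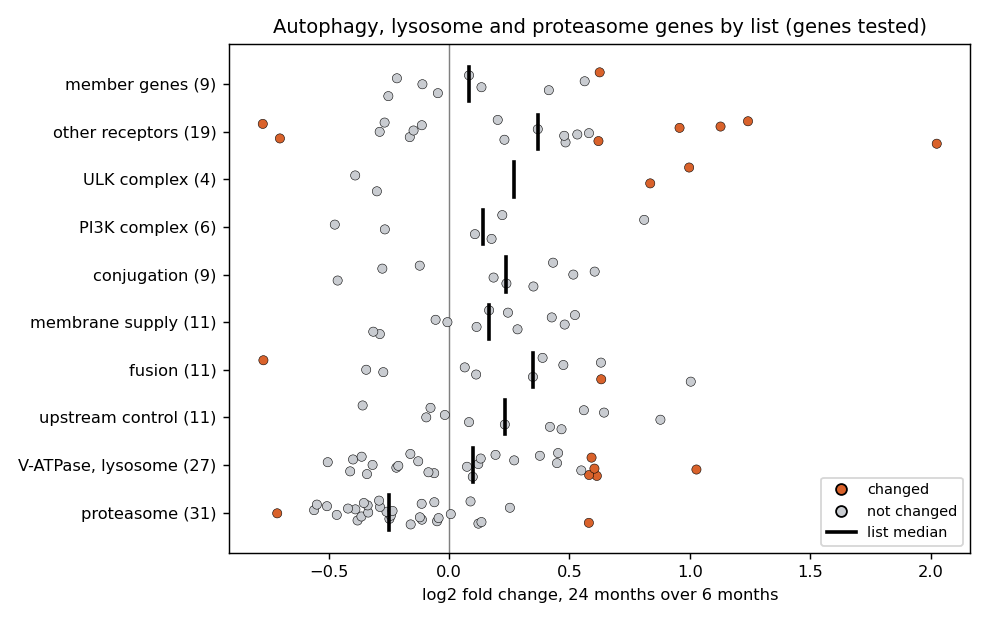
Log2FC (24 months over 6 months, horizontal axis) of every tested gene in the lists, with the number of tested genes in brackets, changed genes in orange and list medians as black ticks. The median was 0.08 for the 9 genes described here, 0.37 for the other receptors and -0.25 for proteasome subunits.

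The lysosome receives what the Atg8 proteins and their receptors bring. Beside the 9 genes, 27 V-ATPase and lysosomal membrane genes held 5 changed and higher genes in edgeR (10.3% of all tested genes). DESeq2 called 4 higher on raw and 5 on quantile-normalized counts, and limma-voom 6, beside 629, 547 and 701 of the 9375 tested genes. Changed and lower were 0 by each of these tools (4.17% of all tested genes in edgeR, and 205, 272 and 484 of 9375 in the others). At an unadjusted p under 0.05 in edgeR, 8 were higher and 6 lower (18.3% and 16% of all tested genes). By adjusted p alone, 8 were higher and 3 lower (12.3% and 9.42% of all tested genes). The median was 0.10, and Atp6v1b2, a subunit of the proton pump, had the smallest p of those called (log2FC 0.60, adjusted p = 3.44e-05 in edgeR; 0.575 without 6m replicate 1 and 0.5784 without 6m replicate 3, just under the minimum). The proteasome is the other main route of protein breakdown, and p62 can carry ubiquitinated proteins to either. Of its 31 subunits, 1 was changed and higher (Psma3) and 1 changed and lower (Psmc1, log2FC -0.71), beside 10.3% and 4.17% of all tested genes. The log2FC of Psma3 was 0.58, 0.57 in DESeq2 on quantile-normalized counts, or 0.47 without 6m replicate 4 or 24m replicate 4. At an unadjusted p under 0.05 in edgeR, 1 subunit was higher and 16 were lower (18.3% and 16% of all tested genes). By adjusted p alone, 11 proteasome genes were lower (9.42% of all tested genes) and 1 was higher (12.3%), and the median was -0.25. Whether the 9 autophagy genes differed from either list was not tested.

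For each member the gene with the nearest profile over the 8 libraries was looked up. The nearest of so many genes lies close by selection, and no chance distance was worked out. Likeness was the root mean square difference of log2 CPM, with each gene centred on its own mean, for members with a mean count of at least 50. Gabarapl1 was nearest to Keap1 (0.0541), Map1lc3b to the transporter gene Slc29a4 (0.0623), Map1lc3a to Polr2f (0.0332), Gabarap to Atp5mc2 (0.0515), Gabarapl2 to Rnpepl1 (0.0416), Sqstm1 to Kctd17 (0.0388) and Becn1 to Lrpap1 (0.0617). Among the members, Map1lc3b and Gabarapl1 were each other's nearest (0.142), as were Map1lc3a and Gabarap (0.0923). These profiles span both ages and hold the age difference itself, so members with a like log2FC are placed close for that reason. The log2FC were 0.56 and 0.41 for the first pair and -0.11 and -0.05 for the second.

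The cell makeup of the hemispheres, as far as marker genes show it, differed between the same libraries as Map1lc3b and Gabarapl1 did. Summed over 8 neuronal markers, led by Tubb3, the levels were 2516, 2546, 2672 and 2555 CPM at 6m and 2942, 2986, 3016 and 3035 CPM at 24m. Tubb3 itself went against the sum and averaged 934 CPM in young adult but 762 CPM in aged libraries (log2FC -0.30, adjusted p = 0.0353 in edgeR). The 8 oligodendrocyte markers, led by Mbp, reached 2446, 2070, 2171 and 2633 CPM at 6m and 3644, 3371, 3726 and 2873 CPM at 24m. Among the 10 microglial markers, led by C1qa, sums were 793, 828, 839 and 855 CPM at 6m and 1247, 1001, 1079 and 1052 CPM at 24m, and Cx3cr1 was close to 0. The 5 markers of oligodendrocyte progenitors gave 114.5, 103, 98.3 and 136 CPM at 6m and 139, 161, 197 and 160.3 CPM at 24m. Most of this sum came from Olig1 (means of 88.9 and 133.5 CPM), and Pdgfra and Gpr17 were close to 0. Cspg4 was level, with means of 9.09 and 9.57 CPM (log2FC 0.03, adjusted p = 0.968 in edgeR), so the higher sum is mainly that of Olig1. All 4 sums were higher in every aged library. The sum of the 6 endothelial markers, most of it from Bsg and with Flt1 close to 0, was lower in every aged library, with 1210, 1114, 1167 and 1158 CPM at 6m and 977, 876, 818 and 841 CPM at 24m. Of the 4 endothelial markers tested, 2 were lower in every aged library (9.96% of all tested genes). By both thresholds, 0 were called in edgeR or DESeq2 and 1 in limma-voom, and 2 were lower at an unadjusted p under 0.05 (16% of all tested genes). By both thresholds in edgeR (10.3% of all tested genes higher, 4.17% lower), 1 neuronal, 2 oligodendrocyte and 2 microglial markers were changed, each higher, and 5 of 5 red blood cell markers were changed and lower. In the same directions, DESeq2 on raw counts, DESeq2 on quantile-normalized counts and limma-voom called 0, 0 and 1 of the neuronal markers. Of the oligodendrocyte markers they called 2, 3 and 3, and of the microglial 1, 1 and 2. The red blood cell markers called were 4, 2 and 3. Of the 9375 tested genes, these tools called 629, 547 and 701 higher and 205, 272 and 484 lower. Of 7 astrocyte markers tested, 3 were changed and higher, Gfap (log2FC 1.94), Slc1a3 (1.65) and Gja1 (1.42), and 1 was changed and lower, Slc1a2 (-0.59), where DESeq2 called 0 lower on raw or quantile-normalized counts. Sums of the astrocyte list (2824 ± 241 and 2843 ± 323 CPM at 6m and 24m, most from Aldoc), the choroid plexus list (3830 ± 755 and 3489 ± 1120 CPM, most from Ttr) and the red blood cell list (7766 ± 1690 and 4517 ± 1260 CPM, most from Hba-a1) overlapped (SD, n = 4 each). The part of cell makeup in the differences of the autophagy genes was not tested.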

How the data were processed

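RNA of whole brain hemispheres was sequenced by the authors on an ONT MinION as direct RNA, according to the study's methods, although the sample labels name a poly(A) cDNA kit. The deposited values are raw counts per gene, made by the authors with minimap2 2.24 on GRCm39 and featureCounts; strand and multi-mapping settings are not given in the sources used here. Genes were matched by Ensembl identifier to GENCODE vM39 (22281 of 22430). In R 4.3.3, edgeR 4.0.16 (quasi-likelihood, TMM, age alone) compared the ages for genes averaging more than 5 counts, without the quantile and row-median steps of the study. The fit was tested on simulated data. DESeq2 1.42.0, limma-voom (limma 3.58.1), other scalings, filters and a replicate block served as alternatives, as did leaving out each library. Transcript lengths are those of the principal CCDS isoform. Copies were searched with BLAST+ 2.17.0, overlaps with bedtools 2.31.1, and coding regions aligned with Biopython 1.88; promoters are from RefSeq. Named were all members, called genes of the autophagy lists or else the smallest p, Atg101 and Rb1cc1 for their opposite direction, the called gene with the smallest p per direction of the lysosome and proteasome lists, and for each member the gene with the nearest profile. The members and lists were chosen with earlier results of these data known.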

Additional observations from a re-analysis of the deposited data

Results flagged for a closer look

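Within each age, library totals, the CPM of each member, the summed Atg8 CPM and the marker sums were searched for 1 library far from the other 3, its distance to the nearest being set against the spread of all 4. Of 38 groups of 4 libraries, 2 held such a library, and chance gives about 1 in 20. Becn1 stood at 126.6 CPM in 6m replicate 2, against 108 CPM in the next library. The total of the same library was 573152 counts, the lowest of the 8, against 818963 in the next young adult library. Without 6m replicate 2 the log2FC of Becn1 was -0.18 (adjusted p = 0.433 in edgeR; range over the alternatives 0.163 to 0.505).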

How the results depend on the processing

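The number of changed genes over all those tested was 1359, 834 with DESeq2 on raw counts and 819 with DESeq2 after quantile normalization. Changed members numbered 2 with library sizes alone, with more than 5 counts in every library and with filterByExpr, 0 with DESeq2 on raw counts, limma-voom or the replicate block, 3 by adjusted p alone, and 0 to 2 with single libraries left out. Changed genes of the autophagy lists numbered 11, and 7 with more than 5 counts in every library, where fewer genes were tested. Map1lc3a turned positive with quantile normalization (0.0542 in DESeq2, 0.0262 in limma-voom), and Gabarap did so with library sizes alone (0.0558), with quantile normalization (0.0252 and 0.012) and within its range of -0.113 to 0.0054 over left-out libraries; the cause was not tested. Library sizes alone moved the median of all genes to 0.10, and against it Gabarap was at -0.05, Map1lc3b at 0.57 and Gabarapl1 at 0.42. Of changed genes, 71.2% were higher, 84.5% with library sizes alone, 59.2% with limma-voom and 56.7% by adjusted p alone. Replicate numbers name different mice, and correlations of same-numbered libraries were -0.16 to 0.0647; with the replicate block 1308 genes were changed and Ulk1 (log2FC 0.63) had an adjusted p of 0.0557 and Keap1 one of 0.0524 in edgeR. Signs of the other 7 members held in all 18 alternatives. Depth limits Optn and Ulk1 most: 1 count is worth 0.767 to 1.81 CPM.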

Other observations

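Partners of Atg8 proteins outside the receptors were also measured, and the 3 named here were chosen after their values were seen. LC3 was named as a light chain of the microtubule-associated proteins that Map1a and Map1b encode. Map1b fell from 18 to 39 counts in the young adult libraries to 4 to 6 counts in the aged ones (log2FC -2.90, adjusted p = 3.68e-07 in edgeR; -3.10 without 24m replicate 1), without overlap. Mean CPM of Map1a were 213 ± 32.7 (SD) for young adult and 290.2 ± 36.7 for aged mice, n = 4 each (log2FC 0.43, adjusted p = 0.0117 in edgeR; 0.39 without 24m replicate 1), under the fold minimum. The ages overlapped for Map1a, and without 6m replicate 1 its adjusted p was 0.0507 in edgeR. Nsf, a membrane fusion ATPase that Gabarapl2 binds, rose to 263 ± 37.5 CPM (SD) in aged from 153 ± 17.8 CPM in young adult mice (log2FC 0.78, adjusted p = 6.29e-05 in edgeR; 0.86 without 24m replicate 1). Of the 8 genes in this list, 1 was changed and higher and 1 changed and lower (10.3% and 4.17% of all tested genes).

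The Atg8 genes together took 0.216% to 0.245% of all counts in the young adult libraries and 0.247% to 0.290% in the aged ones, without overlap, while their summed CPM after TMM scaling overlapped. The TMM factors themselves were 0.958 to 0.972 at 6m and 0.993 to 1.06 at 24m.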
